A study of Homo sapiens with 12 samples.

Results

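The transcriptome of untreated MM1R cells was compared with that of untreated MM1S cells, 2 human multiple myeloma cell lines that differ in their response to glucocorticoids. MM1S is the glucocorticoid-sensitive line and MM1R the glucocorticoid-resistant line, and both go back to the myeloma cells of 1 patient. The cultures compared are 6 of the 12 in the series. They are MM1S at passages 16, 22 and 23 and MM1R at passages 4, 6 and 7, all untreated. The other 6 cultures are the same lines at the same passages exposed to withaferin A (WA) at 1 µM for 3 h. They serve as further libraries of the line difference. The WA cultures were also part of the fit behind the untreated comparison. They so entered its choice of tested genes, its scaling and its estimate of spread. Resistance is represented by a single line, and no passage number is shared, so that cell line, passage and anything else that separates the cultures of MM1R from those of MM1S cannot be told apart.

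Multiple myeloma is a cancer of plasma cells, the antibody-secreting end stage of B cells. Glucocorticoids kill myeloma cells through the glucocorticoid receptor, a transcription factor encoded by NR3C1 that binds its hormone in the cytosol, moves to the nucleus and activates or represses target genes. A cell that has lost the receptor cannot respond to the hormone, yet lines kept apart in culture can also differ at many genes that have no known tie to the receptor. The comparison of untreated cells therefore asks what distinguishes the resistant line across all expressed genes.

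Between 17817681 and 19368343 reads per untreated culture were counted on genes. Within a line, the log values of 2 cultures, in reads per 1e6 counted (CPM), correlated by 0.982 to 0.993, and between the lines by 0.962 to 0.973. The first principal component held 60.4% of the variance and separated the lines, and the second held 19.1% and set MM1S passage 16 and MM1R passage 4 against the later passages. MM1S passage 16 stood apart from its own line. By chi-square per gene, a measure of how far counts differ beyond sampling noise, it differed from MM1S passage 22 by 24.3 and from MM1S passage 23 by 33.3, whereas passages 22 and 23 differed by 8.36. Its distance to MM1R passage 4 was 30.1. Within MM1R the widest pair was passages 4 and 7, which differed by 44.1, more than any pair of MM1S. MM1R passage 6 differed from passage 4 by 14.8 and from passage 7 by 14.6. All pairs differed by far more than sampling noise, so that each culture was counted as its own library.

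Of 43735 listed genes, 14085 had enough reads to be tested. At an adjusted p under 0.01 and a log2 fold change of at least 1 in size, 419 genes differed between the lines (2.97% of those tested), 209 of them higher in MM1R (1.48%) and 210 lower (1.49%) (edgeR's quasi-likelihood test, n = 3 cultures per line). These are the genes named as called below. In all 419 the CPM of the 3 MM1R cultures lay outside the range of the 3 MM1S cultures, against 32.3% of all tested genes whose lines did not overlap. The 419 were chosen by adjusted p and fold change in these same cultures, which makes such a separation likely. The difference was at least 4-fold by the fitted log2 fold change in 114 of the higher and in 101 of the lower genes. The median size of the log2 fold change over all tested genes was 0.24, and its median with sign was 0.01. Genes whose reads did not exceed 3 in each untreated culture of a line are taken as at the floor of detection there, which held for 40 of the higher genes in MM1S and for 30 of the lower genes in MM1R. Without both cultures of passage 16, 755 genes passed, 482 higher and 273 lower, among them 401 of the 419. Without untreated MM1R of passage 6, 268 passed. With the 6 untreated libraries fitted alone, 353 passed, 334 of them among the 419. The gene lists counted below were drawn up without 20 genes that the study tabulated, CDKN2A excepted, and without most tyrosine kinases. All 20 tabulated genes were called here, 19 higher and 1 lower, so that a list's count holds for its stated members and not for the whole function it is named after. The counts are to be read against the 2.97% of all tested genes that were called, 1.48% higher and 1.49% lower.

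**Figure D1:**
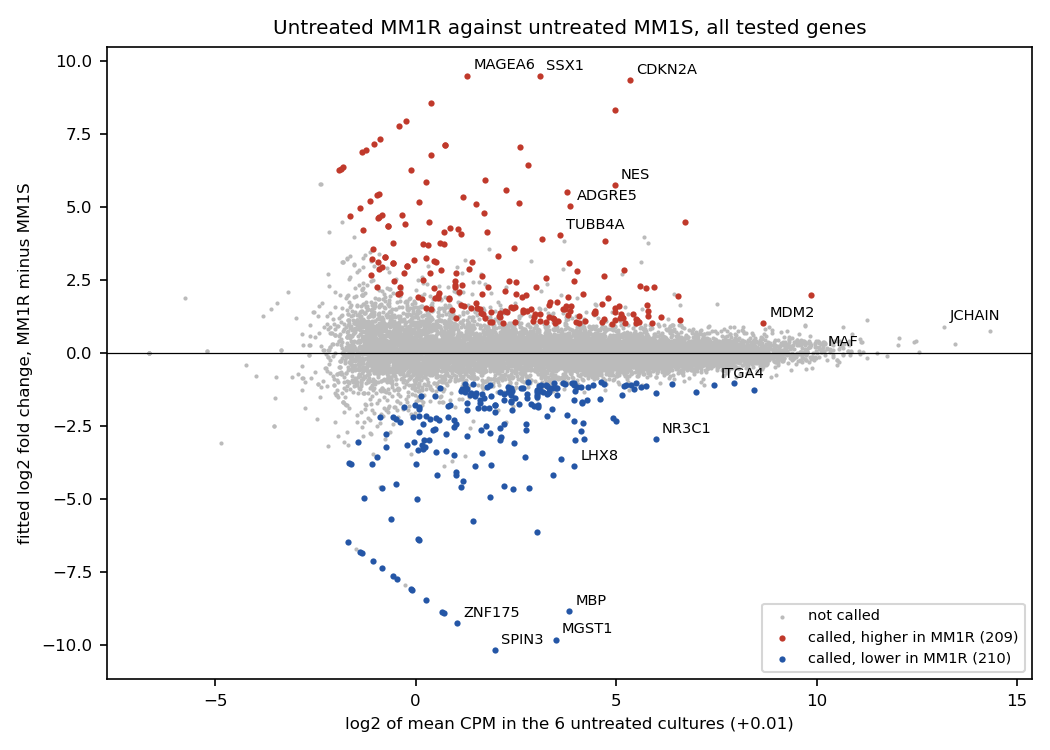
Fitted log2 fold change of MM1R against MM1S (vertical axis) by the log2 of the mean CPM in the 6 untreated cultures (horizontal axis), 1 point per tested gene. Red points are the 209 genes called higher in MM1R and blue points the 210 called lower, and the diagonal rims at the top and the bottom are genes with 0 or nearly 0 reads in 1 line.

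The gene of the receptor itself was lower in MM1R. NR3C1 (chr5:142657496-142815077, minus strand, GRCh37) had 152, 95.5 and 89.0 CPM in MM1S passages 16, 22 and 23 and 14.4, 13.9 and 15.0 CPM in MM1R passages 4, 6 and 7. The lines did not overlap, and the MM1R cultures lay close together, whereas MM1S passage 16 was well above the other MM1S cultures. The log2 fold change of NR3C1 was -2.96, with an SE of 0.23 and an adjusted p of 2.1e-06, and 254 to 277 reads per culture remained. Without both cultures of passage 16 the log2 fold change was -2.68. In bulk cultures, fewer cells with a transcript and less of it per cell cannot be told apart.

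Genes that glucocorticoids induce in many cells were examined in the absence of added hormone. Of 25 tested glucocorticoid targets, 0 were called higher and 1 was called lower, a share near that of all genes, and their median log2 fold change was 0.03. FKBP5, a co-chaperone of the receptor and one of its well-known targets, had 100.2, 114 and 128 CPM in MM1S and 77.4, 101 and 111 CPM in MM1R (log2 fold change -0.24, adjusted p = 0.31). TSC22D3, which encodes the anti-inflammatory protein GILZ, had 26.9, 84.8 and 37.6 CPM in MM1S and 98.4, 107 and 86.6 CPM in MM1R (log2 fold change 0.97, adjusted p = 0.24), with the widest spread in MM1S. The called target was ZBTB16, a zinc finger transcription factor, with 0.207, 2.12 and 1.49 CPM in MM1S and at the floor in MM1R, at least 7.72-fold lower. Its call was lost when any 1 of the 3 untreated MM1R cultures or of passages 22 and 23 of MM1S was left out (log2 fold changes -7.59 to -5.10). Among 21 receptor partners, HSD11B1, whose enzyme regenerates active cortisol, was called higher by at least 4.76-fold, at 0.573, 1.21 and 0.408 CPM against the floor in MM1S. These few reads lost the call when any untreated culture but MM1R passage 7, or the WA culture of MM1R passage 6, was left out (log2 fold changes 4.38 to 6.76). NR3C1 was the single partner called lower. Of 27 listed ABC transporters, which export many drugs, 0 were called, but ABCG2, an exporter among the tabulated genes outside that list, was higher by 5.50 (SE 0.51, adjusted p = 1.7e-05).

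The genes that rose most in MM1R from a low but measured level in MM1S came from unrelated functions. QPRT, an enzyme of NAD synthesis, had 0.466, 0 and 0 CPM in MM1S and 18.4, 11.7 and 11.3 CPM in MM1R (log2 fold change 6.43, SE 0.68, adjusted p = 4.9e-05). Every read of QPRT in MM1S was from passage 16. NES encodes nestin, an intermediate filament protein of progenitor cells, and had 1.87, 0.878 and 0.696 CPM in MM1S and 63.3, 56.7 and 63.5 CPM in MM1R (log2 fold change 5.73, SE 0.25, adjusted p = 1.6e-08). The MM1R cultures lay close together at NES and far above MM1S. ADGRE5, the adhesion receptor CD97, had 0.570, 0.827 and 1.14 CPM in MM1S and 29.3, 27.7 and 27.3 CPM in MM1R (log2 fold change 5.04, SE 0.28, adjusted p = 7.2e-08). PCSK1N, an inhibitor of prohormone convertase, went from at most 0.311 CPM to between 5.78 and 7.40 CPM (log2 fold change 5.91).

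Further genes with large increases were RASAL1, a GTPase-activating protein that switches off RAS (log2 fold change 4.16), SLC44A2, a choline transporter (3.31), and PNPLA4, a lipase of the patatin family (2.58). LOC105377508, an uncharacterised locus, was higher by 2.62, and by 2.47 without a call when MM1S passage 22 was left out. CX3CR1, the receptor of fractalkine, had 8.55, 0.620 and 1.14 CPM in MM1S and 36.1, 50.4 and 61.5 CPM in MM1R (log2 fold change 3.84). Here MM1S passage 16 was again the nearest to MM1R, and without it the log2 fold change was 5.79. Without MM1S passage 23 it was 3.42 and not called (adjusted p = 0.013).

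Several genes at or near the floor in MM1S were cancer-testis antigens. These genes, mostly on the X chromosome, are normally expressed in germ cells, are silenced by DNA methylation in most other tissues and reappear in tumours. Only 11 of the 79 listed in the table had enough reads to be tested, a filter that a gene could pass through MM1R alone, so that the tally of 5 called higher and 0 lower is partly fixed by it. CTAG2, an antigen tabulated by the study and outside the list, had 0, 5 and 6 reads in MM1S and 944, 1156 and 1275 reads in MM1R. SSX1 (chrX:48114827-48126879, plus strand, GRCh37), a transcriptional repressor, had 1, 0 and 0 reads in MM1S and 264, 346 and 314 reads in MM1R, at least 111.1-fold more by CPM. MAGEA6 had 0 reads in each MM1S culture and 93, 88 and 84 reads in MM1R, at least 31.7-fold more. MAGEA10 had 0, 1 and 0 against 70, 61 and 49 reads, at least 21.4-fold more. For SSX1, MAGEA6 and MAGEA10 the lines were separated by more than an order of magnitude in every pair of cultures.

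MAGEA12 had 0.570, 0 and 0 CPM in MM1S and 8.43, 8.12 and 11.5 CPM in MM1R (log2 fold change 5.59, SE 0.71, adjusted p = 2.3e-04). Its neighbour CSAG1 was also highest in MM1S at passage 16 and in MM1R at passage 7, with 0.933, 0.0517 and 0 CPM in MM1S and 9.94, 11.6 and 13.1 CPM in MM1R (log2 fold change 5.12, SE 0.74, adjusted p = 5.6e-04). The 11 and 18 reads of MM1S passage 16 set the size of both, and without that culture the log2 fold changes were 10.43 and 8.49. MAGEC3 was measured in both lines, at 2.95, 2.69 and 2.54 CPM in MM1S and 15.9, 9.33 and 7.05 CPM in MM1R (log2 fold change 1.98). Not every antigen differed. MAGEA1 had 80.5, 87.6 and 90.2 CPM in MM1S and 77.2, 100.1 and 103 CPM in MM1R, overlapping ranges around a log2 fold change of 0.12 (adjusted p = 0.59). MAGEA3, which is nearly identical to MAGEA6, reached no more than 18 reads and was not tested. Whether MAGEA12 and CSAG1 have copies as close was not examined here. Reads could have been divided between copies, so that the values of single members are uncertain.

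The start regions of these genes are shown because the 2 neighbours are arranged head to head and because the antigens lie opposite to the zinc finger genes described further on, which are at or near the floor in MM1R instead. In the RefSeq annotation of GRCh38.p14, CSAG1 starts at 152733721 on the minus strand and MAGEA12 at 152733757 on the plus strand of chromosome X, with 35 bases between the starts (chrX:152733722-152733756). For SSX1 (chrX:48255142-48255391), ZNF175 (chr19:51571033-51571282) and ZNF544 (chr19:58228664-58228913), all on the plus strand, the 250 bases before the start are given. Capitals mark CG dinucleotides, the sites of DNA methylation, and all sequences read 5′ to 3′ on the plus strand.
MAGEA12-CSAG1: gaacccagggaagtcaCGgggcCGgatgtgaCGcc
SSX1: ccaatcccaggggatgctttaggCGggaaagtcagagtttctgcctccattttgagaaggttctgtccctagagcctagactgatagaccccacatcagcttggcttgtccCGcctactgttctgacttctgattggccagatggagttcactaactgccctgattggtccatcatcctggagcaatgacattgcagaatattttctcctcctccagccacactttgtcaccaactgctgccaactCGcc
ZNF175: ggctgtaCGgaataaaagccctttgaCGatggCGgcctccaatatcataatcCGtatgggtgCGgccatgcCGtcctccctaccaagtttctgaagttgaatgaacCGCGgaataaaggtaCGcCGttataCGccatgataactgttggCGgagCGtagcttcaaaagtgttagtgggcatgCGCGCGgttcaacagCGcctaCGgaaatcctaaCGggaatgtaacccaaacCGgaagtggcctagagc
ZNF544: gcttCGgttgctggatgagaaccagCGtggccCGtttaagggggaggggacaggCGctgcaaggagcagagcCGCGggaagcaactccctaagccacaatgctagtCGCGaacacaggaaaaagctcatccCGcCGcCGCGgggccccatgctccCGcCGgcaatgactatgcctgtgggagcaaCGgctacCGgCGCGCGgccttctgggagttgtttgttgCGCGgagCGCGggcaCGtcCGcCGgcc
The short stretch between MAGEA12 and CSAG1 holds 3 CG dinucleotides. SSX1 also holds 3, a number that 29.3% of the 35116 RefSeq windows of this length do not exceed, with a median of 11 over all windows. ZNF175 holds 20 and ZNF544 26, numbers that 32.4% and 19.6% of all windows reach. DNA methylation was not measured in these cultures, and the counts are a description of the sequence.

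Other genes at the floor in MM1S were led by CDKN2B, with 0, 1 and 0 reads in MM1S and 61, 68 and 52 in MM1R, at least 21.6-fold more. CDKN2B and its neighbour CDKN2A on chromosome 9 encode inhibitors of the cyclin D kinases, and the antisense transcript CDKN2B-AS1 was at least 13.4-fold higher. CDKN2A, at no more than 5 reads in MM1S, had 54.4, 88.7 and 101 CPM in MM1R. SAMSN1, an adaptor protein that dampens B-cell activation, was higher by at least 15.3-fold, SVOP, a synaptic vesicle protein, by at least 15.7-fold (not called without MM1S passage 22, at a log2 fold change of 4.18) and the noncoding RNA CERNA2 by at least 16.8-fold. Of 636 tested long noncoding RNAs, 11 were called higher and 5 lower (2.52%), a share near the 2.97% of all genes.

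The genes that MM1R lacked were as sharply separated. MBP (chr18:74690783-74845639, minus strand, GRCh37), known for myelin and also transcribed in blood cells, had 553, 572 and 540 reads in MM1S and 1 read in each MM1R culture, at least 171.9-fold fewer by CPM. MGST1, a microsomal glutathione transferase that detoxifies reactive compounds, had 382, 463 and 477 reads in MM1S and 1, 0 and 0 reads in MM1R, at least 136.3-fold fewer. SPIN3, a reader of histone marks on the X chromosome, had 144, 144 and 173 reads in MM1S and 0 reads in MM1R, at least 47.5-fold fewer. IGF2BP3, a fetal RNA-binding protein, was lower by at least 32.2-fold, and in MM1S its level in passage 16 (1.81 CPM) was well under that of passages 22 and 23 (7.18 and 6.91 CPM). Among the 10 most abundant genes at the floor in MM1R, 4 were zinc finger genes (ZNF175, ZNF826P, ZNF605 and ZNF486), lower by at least 24.7-fold, 19.6-fold, 19.1-fold and 12.7-fold. NLRP5 and the antisense RNA TMEM132D-AS1 complete that list, at least 14.4-fold and 12.4-fold lower. NLRP5 lost its call without MM1R passage 6 or 7 (log2 fold change -8.47 in both).

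Above the floor, the largest decreases included several regulators of development. EYA4, a phosphatase and co-activator, had 23.9, 9.04 and 8.15 CPM in MM1S and 0.781, 0.439 and 0.408 CPM in MM1R (log2 fold change -4.63). LHX8, a homeodomain factor of neurons and germ cells, had 29.1, 32.6 and 25.5 CPM in MM1S and 2.03, 2.03 and 1.92 CPM in MM1R (log2 fold change -3.86, SE 0.22, adjusted p = 1.2e-07). OLIG2, a factor of oligodendrocytes, was lower by -3.88. Neither line overlapped the other at any of the 3. LYL1, a haematopoietic helix-loop-helix factor (1.34), and ID2, an inhibitor of such factors (1.32), were the 2 called among 58 tested members of a list of lineage factors that holds none of EYA4, LHX8 and OLIG2. Both were higher. ID2 lost its call when any untreated culture but MM1S passage 16, or the WA culture of MM1R passage 4 or 6, was left out (log2 fold changes 1.17 to 1.42).

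Signalling and cell surface genes also fell. VAV2, an exchange factor that activates small GTPases, had 13, 22.3 and 26.4 CPM in MM1S and 0.885, 1.32 and 1.17 CPM in MM1R (log2 fold change -4.19, SE 0.39, adjusted p = 1.6e-05). SDC2, a heparan sulphate proteoglycan, was lower by -4.65, and GNE, the key enzyme of sialic acid synthesis, by -3.65. GNE was among the most evenly measured of these genes, at 19.7, 24.5 and 24.6 CPM in MM1S and 2.08, 1.76 and 1.63 CPM in MM1R. PKP3, a desmosome protein (-6.13), ANK3, which anchors membrane proteins to the cytoskeleton (-4.57), MARC1, a mitochondrial reductase (-3.84), and LIMD2 (-3.42) complete the named decreases together with ZNF544 (-4.93) and ZNF714 (-3.55). PKP3 spread most within MM1S, at 2.07, 24.5 and 21.3 CPM, and lost its call when any untreated MM1R culture was left out (log2 fold changes -6.58 to -5.93) and with passage as a replicate block (-5.46, adjusted p = 0.057 by limma).

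**Figure D2:**
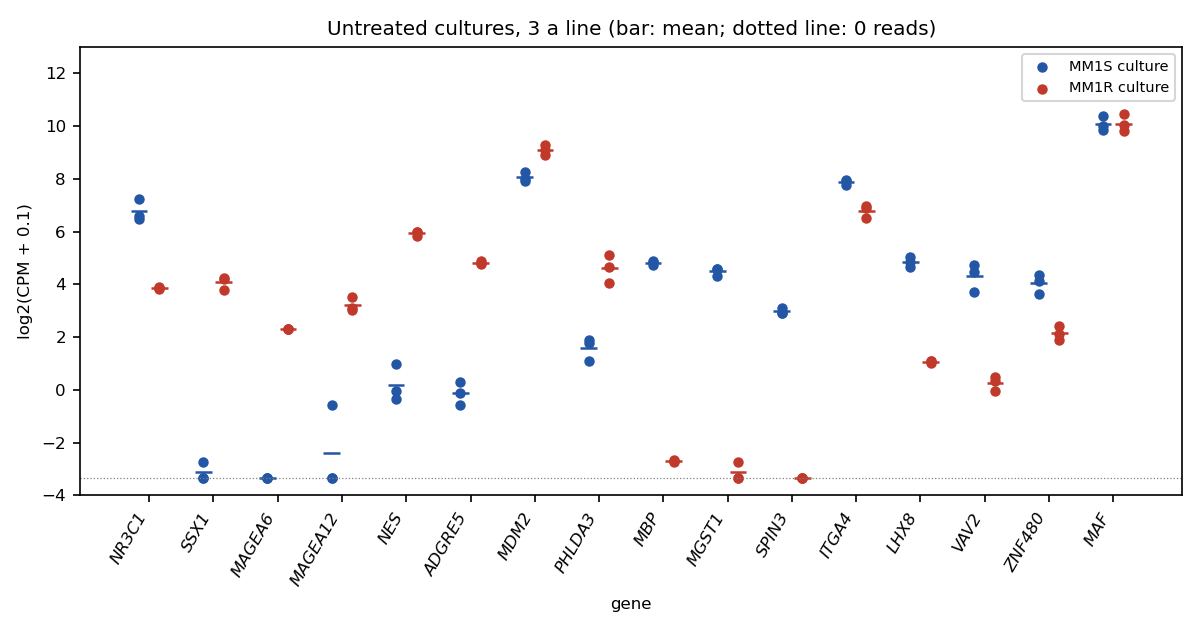
Level in each untreated culture, as log2 of CPM plus 0.1 (vertical axis), for 16 genes (horizontal axis), with MM1S in blue, MM1R in red and a bar at the mean of 3 cultures. The cultures of the lines separate at 15 of the genes and overlap at MAF, which had a log2 fold change of 0.02.

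Adhesion to bone marrow stroma protects myeloma cells. Of 28 tested integrin and tetraspanin genes, 1 was called, lower, a share near that of all genes. ITGA4, the alpha4 chain of the VLA-4 integrin that binds VCAM1 and fibronectin, had 218, 242 and 249 CPM in MM1S and 118, 125 and 91.8 CPM in MM1R (log2 fold change -1.08, SE 0.16, adjusted p = 6.8e-04). Without MM1R passage 7 it was -0.96, and with the GC trend of each library taken out -0.97, both under the fold limit. ALCAM, an adhesion molecule of the immunoglobulin family, was lower by -1.09. It lost its call without MM1S passage 22 or 23 or MM1R passage 6 or 7 (log2 fold changes -1.19 to -0.98). With the GC trend taken out ALCAM was also not called (-0.98). ADGRE5 was the called increase among the 40 listed adhesion molecules, and ESAM, a tabulated gene outside the list, was higher by 2.27. Of 34 matrix genes, GPC4 (-2.99) and COL9A2 (-1.08) were lower and FBN2, a fibrillin, was higher (1.47). COL9A2 lost its call without any untreated culture but MM1S passage 16, or without the WA culture of MM1R passage 6 (log2 fold changes -1.18 to -0.86). PLXND1, a semaphorin receptor, was the call among 40 listed guidance genes, at -1.96, and PLXNB2 and RELN, tabulated genes outside the lists, were higher by 1.95 and 2.64.

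Receptors and ligands of immune signalling were called in both directions. In the chemokine list 2 of 16 tested genes were called, CX3CR1 and CCR10, a receptor for mucosal homing of plasma cells, both higher. CCR10 differed by 1.07 on the log2 scale and lost its call in 11 of 23 alternatives, 5 of them the fits without 1 untreated culture other than MM1S passage 16 (0.96 to 1.12), and 2 those without the WA culture of MM1R passage 4 or 6 (both 1.07). Of 29 listed TNF ligands and receptors, 2 were called higher and 0 lower, and TNFRSF8 (CD30), a tabulated gene outside the list, was higher by 3.91. TNFSF8, the ligand of CD30, had 0, 0.155 and 0.447 CPM in MM1S and 3.70, 3.29 and 4.84 CPM in MM1R (log2 fold change 4.23). TNFRSF10B, the death receptor DR5, had 36.3, 40.2 and 40.3 CPM in MM1S and 89.0, 74.4 and 74.6 CPM in MM1R (log2 fold change 1.03, SE 0.14, adjusted p = 5.0e-04). CD70 came just under the fold limit at 0.97 (adjusted p = 9.5e-04). Among 43 cytokine genes, IL13RA1 was called lower at -3.36, among 31 NF-kB genes REL was called lower at -1.63 and among 50 interferon-stimulated genes GBP2 was called lower at -1.79. REL lost its call in 7 alternatives, among them those without MM1S passage 16 or 22 or MM1R passage 6 or 7 (-1.70 to -1.32).

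Plasma cell identity was held by both lines. Of 27 tested plasma cell genes, 24 lay above 0, with a median of 0.21. DERL3, a protein of endoplasmic reticulum degradation, was the single call (log2 fold change 1.11). That call was lost without MM1S passage 22 or 23 or MM1R passage 6 or 7 (0.98 to 1.13). It was also lost with the GC trend taken out (0.96). The factors that define plasma cells did not differ by the limits. PRDM1 differed by 0.18, IRF4 by 0.12 and XBP1 by 0.29 (adjusted p = 0.43, 0.71 and 0.20). The surface markers SDC1 (CD138) and TNFRSF17 (BCMA) differed by 0.37 and 0.32 (adjusted p = 0.065 and 0.30). JCHAIN, the joining chain of polymeric antibodies, had 7282, 6305 and 5718 CPM in MM1S and 12681, 12392 and 10915 CPM in MM1R (log2 fold change 0.90, SE 0.16, adjusted p = 0.0029), under the fold limit with no overlap. CD38, the target of daratumumab, ran the other way at 54.3, 103 and 116 CPM in MM1S and 42.6, 49.7 and 41.3 CPM in MM1R (log2 fold change -1.04, adjusted p = 0.023). The lines did not overlap at CD38, but MM1S passage 16 was near MM1R, and without both cultures of passage 16 the gene was called at -1.30.

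CD79A, a signalling chain of the B-cell receptor that plasma cells normally turn down, had 0.259, 0.103 and 0.149 CPM in MM1S and 3.64, 3.40 and 2.22 CPM in MM1R (log2 fold change 4.13, SE 0.39, adjusted p = 2.0e-05). It was the only call among 16 tested B-cell genes, of which 13 lay above 0, with a median of 0.44. BLNK, the adaptor downstream of that receptor, differed by 0.87 (adjusted p = 2.9e-04), and CD79B by 1.08 (adjusted p = 0.012), at 30.8, 18.5 and 16.4 CPM in MM1S and 41.2, 46.7 and 50.8 CPM in MM1R. CD79B was called with passage as a replicate block (1.13, adjusted p = 0.0017 by limma). CD22, a coreceptor of mature B cells, had 0 reads in all 6 cultures. None of 12 tested MHC class I and 5 class II genes was called, and CIITA, the master regulator of class II, was at -0.75 (adjusted p = 0.032). Of markers of other cells, the summed reads of 19 T and NK cell genes were 7.43 to 11 CPM in MM1S and 11.1 to 15.6 in MM1R, with CD3D and CD3G at 0. Those of 20 myeloid genes were 21.6 to 34.4 and 20 to 23.2, with MPO and the C1Q genes at 0. Erythroid and platelet genes summed to 16.8 to 19.1 and 16.6 to 18.4, with GYPB at 0, and stromal, endothelial and epithelial genes to 20.2 to 28.7 and 21.5 to 28.7, with COL1A2 and CDH5 at 0. None of their tested genes was called.

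The oncogene of these lines and genes of drug response did not pass the test. MAF, the transcription factor that the lines overexpress, had 1350, 937 and 1015 CPM in MM1S and 1394, 1054 and 892 CPM in MM1R (log2 fold change 0.02, adjusted p = 0.97). MYC differed by 0.15 (adjusted p = 0.87) and CRBN, the target of lenalidomide, by -0.03 (adjusted p = 0.87). CCND2, the D cyclin that MAF induces, had 684, 1055 and 1305 CPM in MM1S and 590, 684 and 792 CPM in MM1R (log2 fold change -0.56, adjusted p = 0.15). These tests do not show that the levels are equal. MYCL, a relative of MYC, was called lower at -1.50, with 13, 11.5 and 11.6 CPM in MM1S and 5.52, 3.84 and 3.32 CPM in MM1R.

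The DNA damage response halts the cycle or triggers death. Its listed genes gave 4 calls among 34 tested, all higher in MM1R (against 1.48% of all genes). The list median was 0.24, and 26 members lay above 0, against 7141 of all 14085 tested genes. The list was drawn up with earlier results of these data known, so that its count is only a description. CDKN1A and EDA2R below were named after their values were seen. PHLDA3, which blocks AKT at the membrane, had 2.02, 3.31 and 3.58 CPM in MM1S and 16.6, 25.0 and 34.3 CPM in MM1R (log2 fold change 3.09, SE 0.35, adjusted p = 7.7e-05). MDM2, a ubiquitin ligase, had 254, 243 and 308 CPM in MM1S and 475, 553 and 619 CPM in MM1R (log2 fold change 1.03, SE 0.15, adjusted p = 6.7e-04). SPATA18, a regulator of mitochondrial quality, differed by 2.26 on 0.149 to 1.40 CPM and lost its call in 12 of 22 alternatives, among them those without any single untreated culture (1.98 to 2.58) and without the WA cultures of MM1S passages 22 and 23 and MM1R passages 6 and 7 (all 2.25). The fourth was TNFRSF10B. MDM2 and TNFRSF10B lay at the fold limit, and fell under it without MM1S passage 16 (0.99 and 0.98). MDM2 also did so without MM1S passage 22 (0.96) or MM1R passage 7 (0.93). TNFRSF10B did so without MM1R passage 4 (0.94) and with the GC trend taken out (0.99). CDKN1A, the p21 inhibitor, had 42.4, 115 and 104 CPM in MM1S and 218, 287 and 339 CPM in MM1R, without overlap but with an adjusted p of 0.027 for a log2 fold change of 1.69. With the replicate block CDKN1A was called (1.79, adjusted p = 0.0095 by limma) and SPATA18 was not (2.24, adjusted p = 0.018). In the WA cultures the line difference was 1.49 for PHLDA3, 0.36 for MDM2, 0.16 for TNFRSF10B and 1.58 for SPATA18, and EDA2R went from 0.92 to -0.13. For none of these 5 genes was the change of the line difference called (interaction test of edgeR, adjusted p = 1 for each). The unadjusted p of that edgeR test were 0.0034, 0.0073, 8.0e-04, 0.36 and 8.6e-04, in the same order. Its fit did not use the pairing of untreated and WA cultures by passage, so that it can miss a change. The limma fit with the replicate block did use it. There 0 of all tested genes passed the test of this change, with 337 at an unadjusted p under 0.05 by limma.

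In the list of BCL2 family genes and caspases, 1 of 34 was called. BCL2L2, the survival protein BCL-W, had 0.259, 0.155 and 0.199 CPM in MM1S and 3.18, 2.69 and 2.62 CPM in MM1R (log2 fold change 3.75). Of the 47 DNA methylation and Polycomb genes, PCGF3, a ring finger subunit of a Polycomb complex, was the only call (-2.15), with 15.6, 16.5 and 15.8 CPM in MM1S against 5.26, 2.85 and 2.62 CPM in MM1R. Regulators of MAPK and PI3K signalling gave RASAL1 and the phosphatase PTPRJ (1.92) as increases and the G protein subunit GNG2 (-2.03) as a decrease among 56.

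Single metabolic genes were called. Beside MGST1, the 43 tested genes of drug metabolism and glutathione gave CBR3, a carbonyl reductase of anthracyclines, as lower (-1.87) and GSTM2, a cytosolic glutathione transferase, as higher (1.09). GSTM2 lost its call without MM1S passage 22 (1.02). SQLE, an enzyme of cholesterol synthesis, had 31.8, 30.7 and 29.6 CPM in MM1S and 61.8, 70.0 and 62.2 CPM in MM1R (log2 fold change 1.08, SE 0.13, adjusted p = 1.5e-04) and was the only call among 38 lipid genes, at 0.99 and under the limit without MM1R passage 6. SLC2A3, the glucose transporter GLUT3, was the only call among 36 genes of glycolysis and hypoxia, at 1.87, and lost its call without MM1S passage 22 or 23 or MM1R passage 4 or 6 (1.66 to 1.80). No proteasome subunit (0 of 34) was called, and PSMB5, which bortezomib binds, was at 0.30 (adjusted p = 0.11). DERL3 was the only call among 48 genes of endoplasmic reticulum folding.

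Small shifts of whole classes stood beside these single genes, with no member called. Of 75 tested cytosolic ribosomal protein genes, 74 lay above 0, with a median of 0.31. RPL3, for example, had 1489, 1594 and 1384 CPM in MM1S and 1665, 1864 and 1941 CPM in MM1R (log2 fold change 0.29, adjusted p = 0.11). The smallest p of the class was that of RPS15, at 0.95 (adjusted p = 0.0017), and 3 members had an adjusted p under 0.01 whatever their fold, against 4.83% of all genes (2.57% higher and 2.26% lower). Of 56 subunits of oxidative phosphorylation, 51 lay above 0, with a median of 0.17 and NDUFS7 at 0.75 (adjusted p = 0.0032). On the other side, 48 of 52 mitosis genes were below 0, with a median of -0.31. AURKB, the kinase that corrects spindle attachment, had 97.7, 125 and 125 CPM in MM1S and 63.5, 74.0 and 85.6 CPM in MM1R (log2 fold change -0.64, adjusted p = 0.028). Of 47 DNA replication genes 40 were below 0, with a median of -0.18 and POLA1 at -0.52 (adjusted p = 0.023). MKI67, the marker of cycling cells, overlapped between the lines (log2 fold change -0.28, adjusted p = 0.44). The 30 amino acid transporters and serine synthesis genes had a median of -0.33, and the 24 genes of the AP-1 and immediate early list one of -0.26, with no call in either. The members of such a class are not independent of each other.

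The medians of these classes were not equally firm. For ribosomal proteins the median ran from 0.21, with the length trend of each library taken out, to 0.43 without MM1R passage 4. For oxidative phosphorylation it was 0.06 with the length trend taken out and 0.02 without MM1R passage 7. For mitosis genes it ran from -0.44 without MM1S passage 16 to -0.19 without MM1S passage 23. For amino acid transporters it was -0.08 without MM1S passage 22. Across all genes the difference between the lines followed base composition, with a median of -0.14 in the fifth of genes poorest in GC (up to 40.3% in the longest transcript) and of 0.13 in the richest (from 57.2%).

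**Figure D3:**
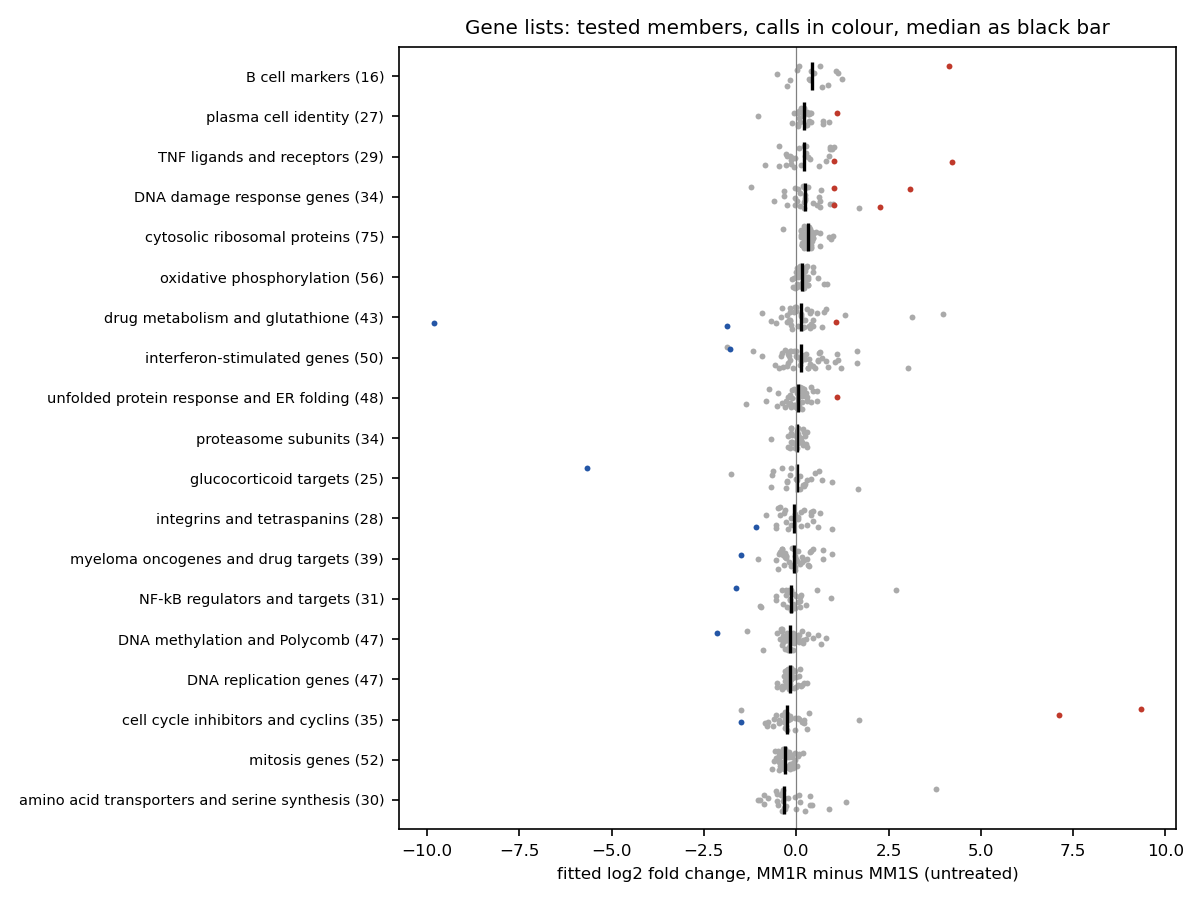
Fitted log2 fold change of MM1R against MM1S (horizontal axis) for the tested members of 19 gene lists, with the number tested in brackets, 1 point per gene, calls in red (higher) or blue (lower) and the median as a black bar. The medians lay between -0.33 and 0.44.

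Position on the chromosomes was examined for the 12576 genes with a place in the GENCODE annotation of GRCh37 (89.3% of those tested). The share of called genes was highest on chromosome X, with 20 higher and 6 lower of 442 (5.88%), chromosome 21 (5.69% of 123) and chromosome 19, with 15 higher and 28 lower of 832 (5.17%). On X a block of 4 neighbours, PUDP, STS, PNPLA4 and TBL1X (chrX:6585906-9709077), had an adjusted p under 0.05 with the same direction at every gene, all higher. PUDP had 31.4, 27.4 and 25.5 CPM in MM1S and 60.2, 63.5 and 63.5 CPM in MM1R, and STS, steroid sulphatase, was higher by 1.23, but not called without MM1S passage 22 or 23 (1.14 and 1.13).

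In all, 13 such blocks of at least 4 neighbouring genes were found, 10 higher and 3 lower in MM1R. Of all tested genes, 11.9% had an adjusted p under 0.05 by edgeR. The shared direction is part of the rule for a block, and whether such blocks are more frequent than gene order alone would give was not tested. On chromosome 6, PIM1, TBC1D22B, RNF8, CMTR1 and CCDC167 (chr6:37137928-37467669) were all lower, with log2 fold changes from -1.15 to -0.58. CMTR1, which methylates the cap of mRNA, was the most even of them, at 72.2, 76.0 and 71.7 CPM in MM1S and 33.2, 33.9 and 33.4 CPM in MM1R. On 5q, F12, GRK6, PRR7-AS1 and PRR7 (chr5:176829134-176883287) were higher by 0.89 to 2.0. The highest, PRR7-AS1, was not called with the replicate block (1.90, adjusted p = 0.016 by limma). Its call was also lost without any untreated culture but MM1R passage 7 (1.83 to 2.19). The same held without the WA culture of MM1S passage 22 or 23 or MM1R passage 6 or 7 (all 2.0). Taking out the GC or the length trend also ended the call (1.93 and 1.885). On 19p, DENND1C, TUBB4A, TNFSF9 and CD70 (chr19:6467218-6604114) were higher, and TUBB4A, a neuronal tubulin, led them with 1.61, 1.14 and 1.39 CPM in MM1S against 20.6, 21.8 and 26.2 CPM in MM1R (log2 fold change 4.04, SE 0.22, adjusted p = 6.9e-08). On 22q, PLXNB2, a semaphorin receptor, was called (1.95) among 4 higher neighbours. The remaining higher blocks were TUBB2B to FAM50B on chromosome 6, TBC1D10C to CORO1B on 11, UBB to LRRC75A on 17, SLC66A2 to RBFA on 18, and TPGS1 to RNF126 and ABHD17A to CSNK1G2 on 19. Overlapping neighbours such as PRR7 and PRR7-AS1 cannot be told apart where reads were counted without regard to strand, which is not given in the sources used here.

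The longest block was made of zinc finger genes. These KRAB and related factors, many of them repressors of transposable elements, sit in clusters on chromosome 19 that grew by duplication. In chr19:52772840-53426723, 12 neighbours from ZNF766 to ZNF888 were all lower in MM1R, 7 of them called, with a median of -1.28. Of the calls, ZNF83 was lost without any untreated culture but MM1S passage 16 (-1.80 to -1.30) and without the WA culture of MM1R passage 4 or MM1S passage 22 (both -1.54), ZNF766 (-1.05) and ZNF701 (-1.30) without MM1R passage 6, and ZNF28 without MM1R passage 7 (-0.98) or MM1S passage 23 (-0.93). The GC trend taken out also ended the calls of ZNF766 (-0.99) and ZNF28 (-0.92). ZNF480 had 12.3, 17.2 and 20.6 CPM in MM1S and 5.31, 4.28 and 3.61 CPM in MM1R (log2 fold change -1.92, SE 0.23, adjusted p = 1.3e-04). ZNF28 had 14.9, 17.0 and 19.4 CPM in MM1S and 8.80, 8.51 and 7.75 CPM in MM1R (log2 fold change -1.03). ZNF888, at the end of the block, was at the floor in MM1R and at least 12-fold lower. A second block in chr19:23708433-24312770 held ZNF675, ZNF681, ZNF726 and ZNF254, with a median of -2.08. There ZNF726 lost its call without any untreated culture but MM1S passage 16 (-1.48 to -1.18) and with the GC trend taken out (-1.21). ZNF675 had 19.6, 26.9 and 31.1 CPM in MM1S and 5.52, 5.65 and 4.43 CPM in MM1R (log2 fold change -2.31). In both blocks no gene of MM1R overlapped MM1S, against 32.3% of all tested genes without overlap. Blocks were chosen by adjusted p and direction in these same cultures, which makes such a separation likely. The log2 fold changes in the WA cultures, which carry the same passages, lay on the same side.

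**Figure D4:**
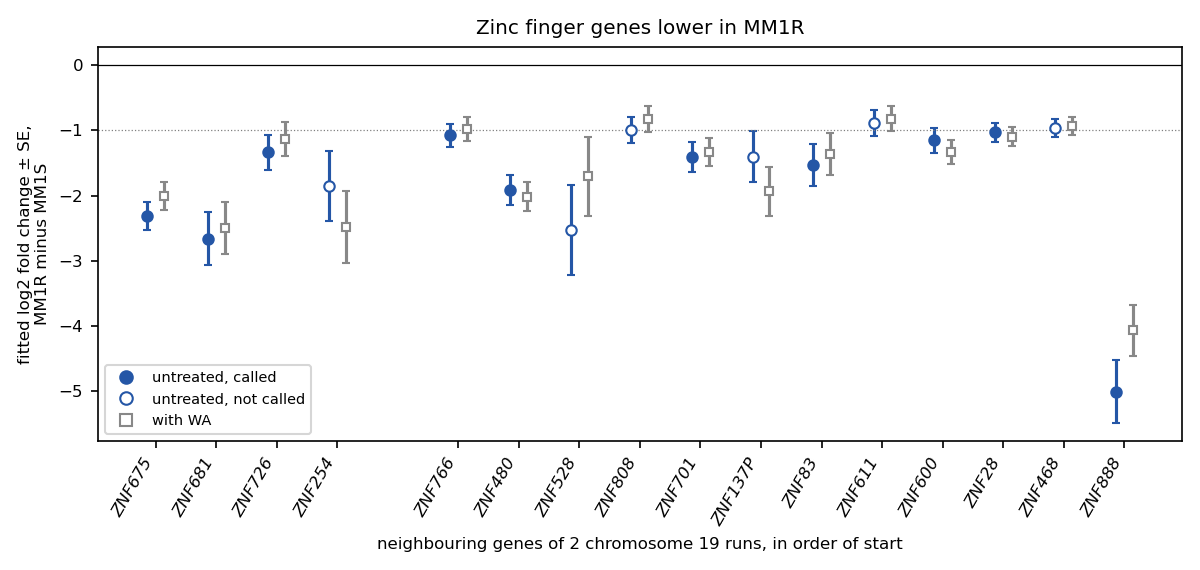
Fitted log2 fold change of MM1R against MM1S with its SE (vertical axis) for the genes of the 2 blocks on chromosome 19 in order of start (horizontal axis), in untreated cultures (circles, filled where called) and in WA cultures (grey squares). Every gene lies below 0 in both sets, and ZNF888 is lowest at -5.00.

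Taken over the family, a set drawn up after these values were seen, 413 genes named ZNF and a number were tested. Of these, 30 were called lower (7.26%, against 1.49% of all genes) and 6 higher (1.48% of all genes). The median of the family was -0.02, so that the family as a whole was not shifted. On chromosome 19, 20 of 192 were lower and 3 higher, and elsewhere 10 of 220 were lower and 3 higher. The other 640 tested genes of chromosome 19 had 8 lower and 12 higher. ZNF genes that rose were ZNF223, ZNF354C, ZNF606, ZNF532, ZNF529 and ZNF514, by 1.90 to 3.21. Paralogs of this family are alike in sequence, and how reads shared between them were counted is not given in the sources used here.

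At a coarser scale, windows of 10 Mb with at least 20 tested genes showed 1 region far from 0. In chr19:20000001-30000000 the median of 27 genes was -1.17, with 8 called lower and 0 higher. It stayed at -1.03 with the GC trend of each library taken out. This window holds the second zinc finger block. Its calls include ZNF486, ZNF826P, ZNF714, ZNF724, ZNF675, ZNF681 and ZNF726, already counted above, so that it is not a separate result. The highest windows were chr7:1-10000000, with a median of 0.39 over 59 genes, chr5:170000001-180000000, with 0.32 over 68, and chr19:1-10000000, with 0.28 over 182. With the GC trend taken out they were 0.33, 0.23 and 0.13. Chromosome 19 as a whole had a median of 0.12 before and 0.01 after, and chromosome 22 one of 0.14 before and 0.06 after, so that these medians moved with base composition. DNA copy number was not measured here.

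The distance of MM1S passage 16 from its own line could be followed gene by gene. Among the 419 called genes, this culture was the nearest of the 3 MM1S cultures to MM1R in 259 (61.8%), against 64 for passage 22 and 96 for passage 23. In MM1R these counts were more even, with passage 4 nearest to MM1S in 193, passage 6 in 110 and passage 7 in 116. The WA culture of passage 16 was also nearest, in 232 of the 419 (55.4%). These counts cover only called genes, which were chosen in the same untreated cultures, and were not made over all tested genes.

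At 38 genes, chosen by their values, passage 16 had at least 4 times the level of both other MM1S cultures (CPM plus 0.5), and in all 38 the WA culture of passage 16 was the highest of its group as well. In 17 of them MM1R was higher still. TKTL1, a transketolase-like gene, had 29.7, 0.465 and 0.646 CPM in MM1S and 68.5, 87.7 and 107 CPM in MM1R. Because of the spread in MM1S its log2 fold change of 3.10 did not pass (adjusted p = 0.13), and without both cultures of passage 16 it was called. SLC43A3, a purine transporter, had 19.2, 2.32 and 1.24 CPM in MM1S and 75.2, 108 and 128 CPM in MM1R (log2 fold change 3.78, adjusted p = 0.010, just outside the limit). At GPX1, a glutathione peroxidase, and ICAM1, the ligand of LFA-1, passage 16 also lay between the other MM1S cultures and MM1R, with ICAM1 at 20.3, 4.08 and 4.28 CPM in MM1S and 71.5, 58.2 and 54.6 CPM in MM1R (log2 fold change 2.69, adjusted p = 0.011). With the replicate block TKTL1 (5.35), SLC43A3 (4.73), GPX1 (5.47) and ICAM1 (3.11) were called by limma, with adjusted p = 0.0015, 1.2e-04, 2.9e-04 and 2.8e-04.

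Other genes of the 38 were high in passage 16 alone. INA, a neuronal filament, had 4.30, 0.103 and 0.547 CPM in MM1S and 0 reads in MM1R, and TNIK and GPC1 behaved alike, with 31.1 and 14.7 CPM in passage 16 against at most 7.19 and 2.94 CPM in any other untreated culture. At genes that marked MM1R most sharply, passage 16 had few or no reads, with 1 read of SSX1 and 0 of MAGEA6, MAGEA10, CDKN2A and CDKN2B. It held the highest level of NR3C1 of all 6 cultures. What sets passage 16 apart was not tested.

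**Figure D5:**
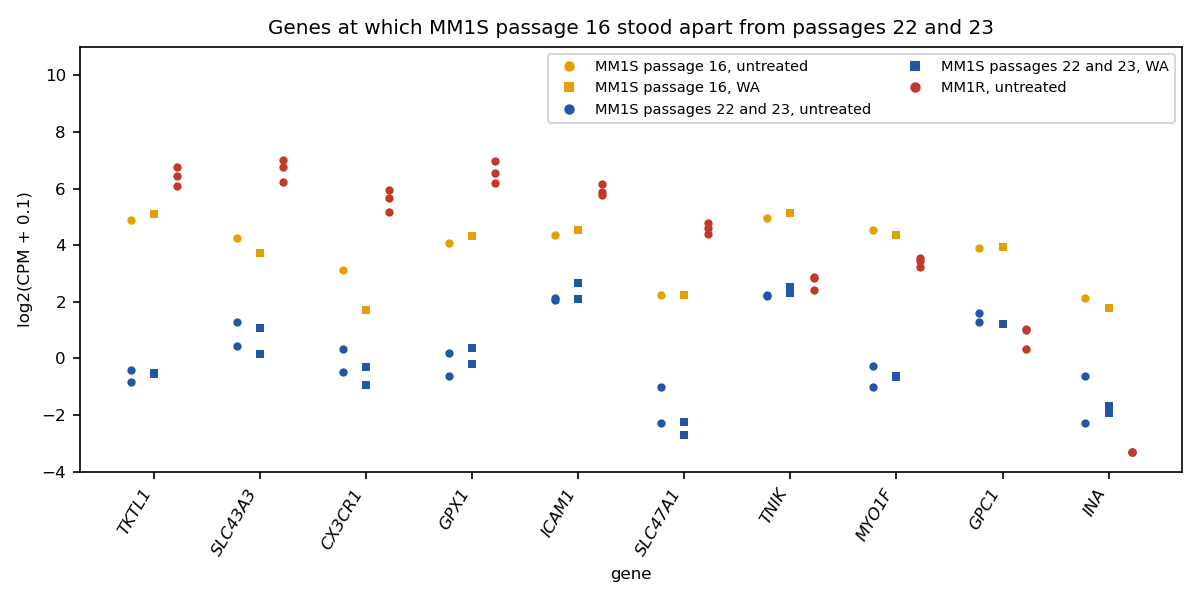
Level as log2 of CPM plus 0.1 (vertical axis) of 10 genes (horizontal axis) in MM1S passage 16 (orange), MM1S passages 22 and 23 (blue) and untreated MM1R (red), with circles for untreated and squares for WA cultures. Passage 16 lies between the other MM1S cultures and MM1R at TKTL1, SLC43A3, CX3CR1, GPX1, ICAM1 and SLC47A1, and above both at TNIK, MYO1F, GPC1 and INA.

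The line difference was then read in the 6 WA cultures. These are other libraries than the untreated ones, but they carry the same passages and were part of the same fit. With WA, 428 genes were called between the lines (3.04%), and 326 of them were among the 419 with the same direction, which is 77.8% of the untreated and 76.2% of the WA calls. All 419 had the same sign in both. They were chosen for a large line difference, and the WA cultures share their passages, so that a shared sign was likely. The share of all tested genes with the same sign was not counted. SSX1, MAGEA6, MBP and MGST1 had log2 fold changes of 8.26, 9.02, -8.33 and -11.54 with WA, NR3C1 one of -2.87 and NES one of 5.49. Some calls were not made again, among them MDM2 and TNFRSF10B, whose line differences were much smaller with WA, as given above. No gene (0) passed the test of a change in the line difference by edgeR, with 97 at an unadjusted p under 0.05 (0.689%), and DESeq2 called 1, which does not show that the differences are equal.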

How the data were processed

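RNA of 12 cultures of MM1S and MM1R was sequenced, and line, treatment and passage were taken from the sample labels. The authors deposited counts of reads per gene, not normalized, obtained after FastQC 0.11.5 with STAR 2.7.3a on hg19 per the submitters' processing notes, and the deposited counts are the unit of every test. Which gene models and strand option the counting used is not given in the sources used here. A second table, of normalized values, was not used. The study's methods call the 3 samples of each line and treatment biologically independent, and the labels tell them apart by passage. P-values measure the spread between these cultures.

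Genes were kept by filterByExpr (minimum count 10) and scaled with TMM. Line differences were tested in R 4.3.3 with the quasi-likelihood test of edgeR 4.0.16 in 1 fit of all 12 libraries and Benjamini-Hochberg adjustment over 14085 genes, and called at an adjusted p under 0.01 with a change of at least 1 on the log2 scale. CPM are TMM-normalized. Folds against a line at the floor (3 reads per culture) are lower bounds, computed against 3 reads per culture. Floors cover counting error only, since reads carry no molecular identifiers, and precision is limited by 3 cultures per line. Alternatives were DESeq2 1.42.0 and its size factors, other filters, the 6 compared libraries alone, a test against a log2 fold change of 1, an adjusted p of 0.05, each library left out and limma 3.58.1 with passage as replicate block. Offsets for GC content and transcript length (longest GENCODE transcript, found for 89.5% of tested genes) and a fit without passage 16 were added after the data were seen. The fits were checked on simulated counts.

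Named genes are the 12 largest called changes in each direction with at least 5 CPM in the higher line and above the floor in the other, the 10 most abundant called genes at the floor in each direction, up to 6 called members of each list or else the one of smallest p, fixed myeloma and receptor genes, and blocks of at least 4 neighbours. The kinases and the genes of the study's leading table are left out, apart from CDKN2A and members of lists and blocks, and of the tabulated genes only CDKN2A is in a list. ABCG2, CTAG2, ESAM, RELN and TNFRSF8 were named after their values were seen. Members and lists were chosen with earlier results of these data known. CDKN1A, EDA2R, JCHAIN, BLNK, CD79B, HSD11B1, MAGEA1, MKI67, RPL3 and the genes described for passage 16 were named after their values were seen. A block is a run of at least 4 neighbouring tested genes with an adjusted p under 0.05 and the same direction. Gene coordinates are GRCh37 (GENCODE v44lift37). Start regions are RefSeq GRCh38.p14, where 73.9% of tested and 72.8% of called genes had an entry by symbol, too few to compare sets of promoters.

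Passage numbers pair the untreated and WA cultures of a line. Deviations from the group mean correlated between same-numbered cultures by 0.71, 0.25 and 0.44 for passages 16, 22 and 23 and by 0.39, 0.18 and 0.22 for passages 4, 6 and 7. The lines share no number, so that the block entered as a random effect, with a correlation of 0.44. Some genes are not reported here.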

Additional observations from a re-analysis of the deposited data

How the results depend on the processing

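The number of genes called between untreated lines was 811 with no filter on low counts, 129 with glmTreat against a log2 fold change of 1 and 740 at an adjusted p of 0.05. It ran from 268 to 537 with each library left out in turn, lowest without untreated MM1R passage 6, and was 755 without both cultures of passage 16. With replicate block it was 485 (278 higher and 207 lower), of which 394 were among the 419, so that the split moved toward higher genes, and with DESeq2 it was 567, with 413 shared. In the WA cultures the count of 428 became 819, 124 and 728 under the same 3 settings, 817 without both cultures of passage 16, 494 with replicate block and 264 to 649 with each library left out. The test of the change in the line difference gave 11 genes with no filter and 1 with DESeq2, and 0 in the other settings, leave-one-out fits included, which ran from 0 to 0. The block for paired cultures moved neither count of calls by over 1.5 times, and of the named genes it changed the calls given above and those of CORO1B, SLC47A1 and TPGS1, which it gained.

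Under all alternatives, no called gene named above changed direction. Some genes that were not called crossed 0, most of them near it, but TNIK from a log2 fold change of -1.05. With each library left out MAF ran from -0.18 to 0.19, IRF4 from -0.0339 to 0.22, TNIK from -1.47 to 0.49 and MYO1F from -0.18 to 4.21. Without both cultures of passage 16, IRF4 was -0.0337 and TNIK 0.50. With the GC trend taken out CRBN was 0.12, and with the length trend taken out CRBN was 0.0148 and MAGEA1 -0.0046. Depth limits the genes at the floor, whose bounds rest on 3 reads, and the 3 cultures per line limit the rest.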
